A study of Homo sapiens with 24 samples.

Results

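Targeting of ZNF711 in the atrial protocol was described from 6 of the 24 bulk RNA sequencing libraries of the series, 3 labelled AM ZNF711 and 3 labelled AM TRAC. They were chosen by their labels, and no measured value entered the choice. All genes were described, of which 17724 of the 62757 in the count table passed a filter on low counts and were tested. Every library came from HES3, a human embryonic stem cell line that carried a GFP reporter at NKX2-5 and an mCherry reporter at NR2F2 in all groups. The cells were grown as embryoid bodies, floating aggregates of differentiating cells, with a Wnt-modulating protocol for at most 14 days. In the AM libraries, read here as the atrial protocol, retinoic acid was added at day 4. The AM ZNF711 cells were labelled a CRISPR-Cas9 knockout of ZNF711, and the AM TRAC cells were targeted at TRAC, the T cell receptor alpha constant gene, as the control. Libraries used beside them were VM ZNF711 and VM TRAC, the same targets without retinoic acid and read here as the ventricular protocol, and AM LHX2 and AM ZNF503, the other targeted cells of the atrial protocol. The guides, the editing rate and whether a line was 1 clone or a pool were not given in the sources used here. Nothing states that same-group libraries came from separate cultures, so the spread between them may be technical. The p-values rest on the spread left after differences between replicate numbers are removed, pooled over all 24 libraries.

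ZNF711 is an X-linked zinc finger protein of the ZFX and ZFY family. It binds gene promoters, many of them in CpG islands, and recruits the histone demethylase PHF8. In the developing heart, retinoic acid steers mesoderm toward atrial fate, T-box factors and BMP signals pattern the chambers and the conduction system, and versican is a main proteoglycan of the cardiac jelly between endocardium and heart muscle. Embryoid body cultures hold other cell types beside cardiomyocytes, among them endothelial, mesenchymal and endodermal cells.

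Total counts were 3855267 to 5134066 in AM ZNF711 and 5340447 to 6353517 in AM TRAC. Mitochondrial genes took 2.72% to 3.18% and 2.31% to 3.15% of counts in these groups. Libraries of a group differed beyond sampling noise, with a chi-square per degree of freedom of 4.57 to 12.1. Levels are given as CPM, the share of a library's counts rescaled to a fixed total, on library sizes scaled by the trimmed mean of M values, always in the order of replicates 1, 2 and 3. The labelled cell type, cardiomyocyte, was checked with its markers. MYH6, the atrial and fetal myosin heavy chain, was at 6587 to 12215 CPM and TNNT2, cardiac troponin T, at 253 to 605 CPM over the 6 libraries, while NR2F2, an atrial transcription factor, was at 383 to 514 CPM. MYL2, the ventricular myosin light chain, was at 0 in every AM ZNF711 library, where 0 counts allow up to 3 counts, or 0.604 to 0.781 CPM, for counting error only. Markers of other cell types were present as well, such as the liver and yolk sac protein AFP at 125 to 899 CPM and the endothelial receptor KDR at 166 to 336 CPM. In bulk samples, fewer cells of a type and less RNA per cell cannot be told apart.

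The targeted gene itself was examined first. ZNF711 (chrX:85244032-85273362, plus strand, GENCODE 29 on GRCh38) was at 55.8, 41.1 and 31.2 CPM in AM ZNF711 and 55.5, 60.3 and 47.4 CPM in AM TRAC. Replicates 2 and 3 lay below every control, and replicate 1 lay among the controls. The log2 fold change was −0.36 (SE 0.16) and did not pass the test (edgeR adjusted p = 0.407). An RNA level does not check an edit that leaves the transcript in place, so the libraries are called by their labels. Against the other targeted atrial cells, AM LHX2 and AM ZNF503, ZNF711 RNA fell by 0.47 on the log2 scale (SE 0.14, edgeR adjusted p = 0.0388). None of the 8 genes of the ZNF711 family and its PHF8 partners was called, and 7 lay below 0, with a median log2 fold change of −0.07 beside 0.0011 for all genes tested. The other 3 of lowest p in that list were KDM7A, a PHF8-like demethylase (−0.36, SE 0.15, adjusted p = 0.348), the paralog ZFX (−0.10, SE 0.10, adjusted p = 0.8) and PHF2, another demethylase of the PHF8 family (−0.05, SE 0.12, adjusted p = 0.944).

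Comparing AM ZNF711 with AM TRAC asked which genes differ when ZNF711 is targeted in cells given retinoic acid. With same-numbered libraries taken as pairs, 94 genes were called at an edgeR adjusted p below 0.05, which is 0.53% of the genes tested. Of these, 42 rose (0.237%) and 52 fell (0.293%). All 94 had the same sign in all 3 pairs, and the libraries of the groups did not overlap for 28 of the genes that rose and 43 of those that fell, against 11.7% of all genes tested. Both counts follow in part from the choice of these genes by a paired test of the same libraries, and lend the calls no support. Changes were modest: the median log2 fold change was 0.61 among genes that rose and −0.75 among those that fell, and 6 and 16 genes changed by at least 2-fold. Protein-coding genes made up 40 of 42 and 49 of 52.

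The number of calls rested on the pairing and on single libraries. With 1 replicate block shared by both protocols, 7 genes were called, and they were TBX3, ID2, CHCHD10, VCAN, PDE10A, CGNL1 and SIAH3. With no block 0 genes were called (618 at an unadjusted p under 0.05, lowest edgeR adjusted p 1). With 1 library left out, the count was 2 without AM ZNF711 replicate 2, 1 without AM TRAC replicate 2, 6 without AM TRAC replicate 3, 20 without AM ZNF711 replicate 1 and 307 without AM ZNF711 replicate 3. Without both replicate 2 libraries it was 0, with 942 genes at an unadjusted p under 0.05. Without both replicate 1 libraries the count was 45, and without both replicate 3 libraries 179. The 94 genes kept their sign in each of these fits. DESeq2 with the same blocks called 194 genes, 88 of them among the 94. More genes were higher than lower there (109 and 85) and in a fit of the AM libraries alone (151 and 128), unlike the 42 and 52 given above.

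Promoters were examined because ZNF711 is known as a promoter-binding protein. RefSeq promoters on GRCh38.p14, from 250 bases before to 50 after the start, were matched for 66 of the 94 called genes. The hexamer AGGCCT, the core of the motif known for ZFX and its relatives, reads the same on both strands and was the only motif searched. It was in 1 of 28 promoters of genes that rose (3.57%) and 3 of 38 of genes that fell (7.89%), against 10.8% of the 12430 tested genes with a promoter and 11% of all 27305. A match is a description of these letters and shows no binding. The 100 bases before the start of 3 genes that fell, chosen after their values were seen, are printed with the hexamer in capitals where it occurs. TBX1 is shown because it holds the hexamer, CGNL1 as the fall of lowest p and KDR as an endothelial gene without the hexamer, and no annotated exon lies in these windows.
TBX1 (chr22:19756603-19756702, plus strand): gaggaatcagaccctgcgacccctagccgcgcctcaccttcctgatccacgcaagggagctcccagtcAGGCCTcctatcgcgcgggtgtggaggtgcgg
CGNL1 (chr15:57376405-57376504, plus strand): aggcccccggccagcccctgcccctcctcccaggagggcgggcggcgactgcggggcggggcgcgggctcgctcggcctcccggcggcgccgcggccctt
KDR (chr4:55125596-55125695, minus strand): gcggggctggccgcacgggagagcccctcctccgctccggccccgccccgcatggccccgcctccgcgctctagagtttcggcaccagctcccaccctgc
The hexamer of TBX1 began 32 bases before the start. The windows of TBX1, CGNL1 and KDR held 8, 15 and 11 CpG dinucleotides.

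TBX3, ID2, VCAN and PDE10A were given as the genes that mark the comparison. TBX3 (chr12:114670254-114684164, minus strand) is a T-box repressor that keeps the sinoatrial node and conduction tissue from becoming working muscle. It was at 89.8, 64.4 and 106 CPM in AM ZNF711 and 47.9, 30.1 and 70.3 CPM in AM TRAC. Each ZNF711 library lay above the control of its number, although the groups overlapped between ZNF711 replicate 2 and control replicate 3. TBX3 rose by 0.86 on the log2 scale, which is 1.82-fold (SE 0.14, edgeR adjusted p = 0.00122). ID2 (chr2:8678845-8684453, plus strand), an inhibitor of basic helix-loop-helix factors and a target of BMP signalling, was at 124, 141 and 149 CPM against 81.2, 91.5 and 98.2 CPM. Its groups did not overlap, and it rose by 0.61, or 1.53-fold (SE 0.11, adjusted p = 0.00439).

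VCAN (chr5:83471465-83582303, plus strand), which encodes versican, was the most abundant of the 4. It was at 2402, 2355 and 1959 CPM in AM ZNF711 and 3681, 4407 and 2918 CPM in AM TRAC. The highest ZNF711 library lay below the lowest control, and the fold was 0.617 (log2 −0.70, SE 0.11, edgeR adjusted p = 0.00292). PDE10A (chr6:165327287-165988078, minus strand), a phosphodiesterase that breaks down cAMP and cGMP, was at 22.5, 24.6 and 21.6 CPM against 41.8, 61.3 and 36.1 CPM. The ZNF711 libraries were close together while the controls spread, and PDE10A fell to a fold of 0.501 (log2 −1.0, SE 0.19, adjusted p = 0.0074). VCAN, ID2 and PDE10A overlap an annotated gene on the other strand (VCAN-AS1, ID2-AS1 and LINC00602). The strandedness of the counting was not given in the sources used here, so reads of the partners cannot be told apart.

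**Figure D1:**
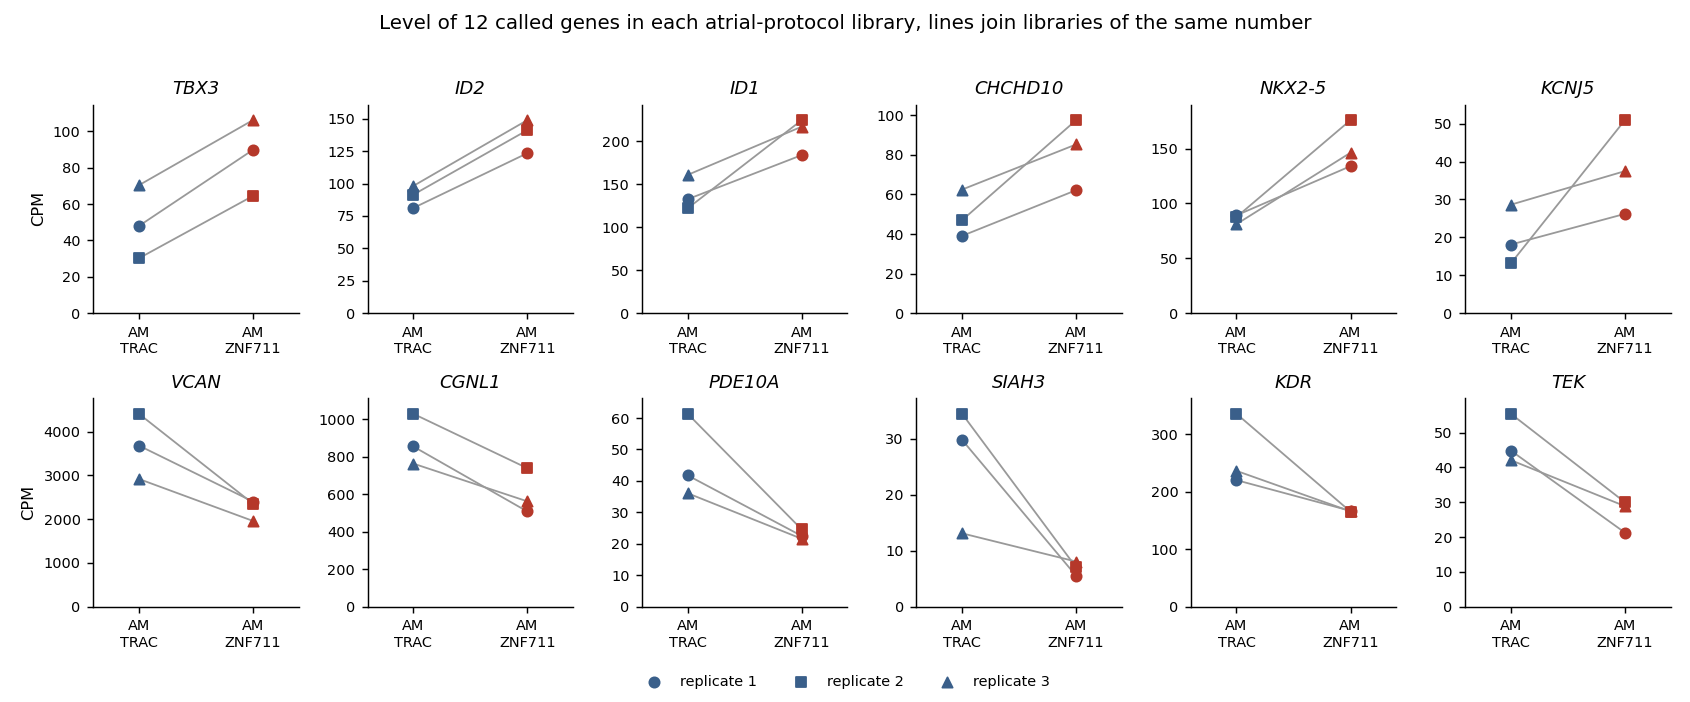
CPM of 12 called genes in each of the 6 atrial-protocol libraries, with AM TRAC on the left and AM ZNF711 on the right of each panel, and marker shapes and lines for libraries of the same number (linear axes from 0). The upper 6 genes are higher in AM ZNF711 in every pair and the lower 6 are lower, while the groups overlap for TBX3, KCNJ5 and CHCHD10 and do not for VCAN, ID2 and PDE10A.

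The plot of 12 genes by library also shows how the pairs differ. For KCNJ5 and CHCHD10 the largest step was between the replicate 2 libraries, and for SIAH3 the smallest was between the replicate 3 libraries, where the control was lowest.

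Among the 6 cardiac T-box factors, TBX3 rose, TBX1 fell and 4 did not pass the test. The shares over all genes tested were 0.237% that rose, 0.293% that fell and 50.2% above 0. TBX1, a factor of the pharyngeal second heart field, was at 5.11, 4.23 and 2.34 CPM in AM ZNF711 and 17.5, 28.1 and 4.01 CPM in AM TRAC. Control replicate 3 lay within the range of the ZNF711 libraries, and replicates 1 and 2 were far above it. The log2 fold change of TBX1 was −1.98 (SE 0.40, edgeR adjusted p = 0.0139). TBX20 and TBX2, which act in chamber muscle and in the atrioventricular canal, had values of 0.78 (SE 0.21, adjusted p = 0.153) and 0.69 (SE 0.23, adjusted p = 0.26). Of the 13 sinoatrial and pacemaker genes only TBX3 was called, and 7 lay above 0 (median 0.02). SHOX2, which keeps the node's pacemaker program, was lower without a call (125, 179 and 139 CPM against 230, 243 and 207 CPM, log2 −0.62, SE 0.19, adjusted p = 0.18). TBX18, a factor of the sinus horn and of the epicardium, had −1.35 (SE 0.59, adjusted p = 0.451), and the ligand BMP4 had 0.45 (SE 0.16, adjusted p = 0.281).

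BMP ligands bind receptors that activate SMAD proteins, and the ID genes are among the most direct targets. Of 27 genes of that pathway, 2 rose and 0 fell, 18 lay above 0, and the median was 0.10. Among all genes tested, 0.237% rose, 0.293% fell and 50.2% lay above 0. The 10 genes at an unadjusted p under 0.05 were all higher, and over all genes 1822 of 17724 reached that p in either direction. ID1 was at 184, 225 and 217 CPM against 133, 122 and 161 CPM, and its groups did not overlap (log2 0.60, SE 0.13, edgeR adjusted p = 0.0215). ID3 followed without a call (143, 165 and 179 CPM against 120, 127 and 128 CPM, log2 0.37, SE 0.11, adjusted p = 0.117). MSX2, another BMP target, had 0.66 (SE 0.18, adjusted p = 0.0931). The pathway's summed level was 2355 to 2673 CPM in AM ZNF711 and 2081 to 2342 CPM in AM TRAC, with no overlap.

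Versican was the only one of 15 genes of the versican and cardiac jelly list to be called, while 6 lay above 0 and the median was −0.17. By comparison, 0.293% of all genes tested fell and 50.2% lay above 0. FN1, fibronectin, was at 4601, 4479 and 4582 CPM against 5753, 6495 and 4850 CPM, lower in all 3 pairs without a call (log2 −0.31, SE 0.11, edgeR adjusted p = 0.264). ADAMTS9, a protease that cleaves versican, had −0.35 (SE 0.11, adjusted p = 0.157), and HAS2, the main hyaluronan synthase of the embryonic heart, had −0.33 (SE 0.17, adjusted p = 0.527). Of 12 fibroblast and mesenchymal genes tested none was called and 5 lay above 0. Their summed level was 4385 to 5998 CPM in AM ZNF711 and 5883 to 7236 CPM in AM TRAC, lower in each pair, and its part in the fall of VCAN was not tested. In that list COL1A2 and FBN1, matrix genes of mesenchyme, had −0.74 (SE 0.25, adjusted p = 0.285) and −1.08 (SE 0.39, adjusted p = 0.307), whereas LOX, the collagen crosslinking enzyme, and LUM, lumican, had 1.73 (SE 0.39, adjusted p = 0.0525) and 1.34 (SE 0.41, adjusted p = 0.167).

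Of 16 phosphodiesterase genes tested, PDE10A and PDE1B fell and none rose, while 7 lay above 0 (median −0.07). The shares over all genes tested were 0.293% that fell and 50.2% above 0. PDE1B, a calcium and calmodulin dependent enzyme, was at 7.57, 7.25 and 12.5 CPM in AM ZNF711 and 21.3, 27.6 and 17.3 CPM in AM TRAC, with no overlap (log2 −1.27, SE 0.28, edgeR adjusted p = 0.0255). PDE11A and PDE4A had −0.53 (SE 0.21, adjusted p = 0.301) and −0.64 (SE 0.32, adjusted p = 0.493). SIAH3, of the SIAH family of ubiquitin ligases, was at 5.52, 7.05 and 8.07 CPM against 29.8, 34.5 and 13.1 CPM. Control replicate 3 was the nearest to the ZNF711 libraries, and SIAH3 fell by 1.79 on the log2 scale (SE 0.32, adjusted p = 0.00439). Its relatives SIAH2 and SIAH1 had 0.59 (SE 0.18, adjusted p = 0.13) and −0.28 (SE 0.15, adjusted p = 0.577).

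In the CHCHD and cristae list, 1 of 13 genes tested rose, as did 0.237% of all genes tested. CHCHD10, a protein of the mitochondrial intermembrane space, was at 62.2, 97.7 and 85.4 CPM against 39, 47 and 62.5 CPM. The lowest ZNF711 library, replicate 1, lay just under the highest control, replicate 3, and CHCHD10 rose by 0.73 (SE 0.13, edgeR adjusted p = 0.00577). Among its partners, IMMT of the cristae junction complex had 0.28 (SE 0.10, adjusted p = 0.26). CHCHD10 shares exon positions with C22orf15 and MMP11 on the other strand, so their reads cannot be told apart.

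The 15 tight junction genes split: CLDN6 rose, CGNL1 fell, and 12 lay above 0 (median 0.33). By comparison, 0.237% of all genes tested rose, 0.293% fell and 50.2% lay above 0. CGNL1, which encodes the junction protein paracingulin, was at 507, 738 and 562 CPM in AM ZNF711 and 854, 1028 and 763 CPM in AM TRAC. The groups did not overlap, and the log2 fold change was −0.55 (SE 0.09, edgeR adjusted p = 0.00122). CGNL1 was called in 8 of the 9 fits with 1 library or 1 pair left out. Fewer of these fits called TBX3 (7), VCAN and CHCHD10 (6), KDR (5), and ID2, PDE10A and SIAH3 (4). TBX1, TEK and NKX2-5 were called in 3, HEYL in 2, IHH and MGAM in 1, and PPFIA2 in 0. CLDN6, an embryonic claudin, was at 142, 168 and 198 CPM against 98.5, 89.4 and 154 CPM (log2 0.59, SE 0.12, adjusted p = 0.0139). CGN, cingulin, the relative of CGNL1, went the other way without a call (0.64, SE 0.22, adjusted p = 0.267), as did CLDN3 (0.62, SE 0.25, adjusted p = 0.334).

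Endoderm markers were higher throughout, without a call. All 13 genes of the endoderm and hepatic list lay above 0, where 50.2% of all genes tested did. At an unadjusted p under 0.05, 9 were higher and 0 lower, against 1822 of the 17724 genes tested in either direction. The median log2 fold change of the list was 0.88. The summed level was 1651, 1561 and 2698 CPM in AM ZNF711 and 805, 675 and 1659 CPM in AM TRAC. Each ZNF711 library was above the control of its number, but replicate 3 was high in both groups, so the groups overlapped. AFP was at 406, 397 and 899 CPM against 149, 125 and 472 CPM (log2 1.36, SE 0.36, edgeR adjusted p = 0.158). TTR and APOB, carriers of thyroid hormone and lipid, had 1.81 (SE 0.54, adjusted p = 0.213) and 1.33 (SE 0.41, adjusted p = 0.23), and CDH1, the epithelial cadherin, had 0.37 (SE 0.11, adjusted p = 0.125). Several genes that rose are also known from epithelia, such as CLDN6, KRT19 and ITGB6, and the part of this shift in their change was not tested.

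Endothelial genes leaned the other way. Of 12 genes tested, KDR and TEK fell, none rose, and 10 lay below 0 (median −0.35). Over all genes tested, 0.293% fell and 50.2% lay above 0. KDR, the main VEGF receptor, was at 167, 166 and 166 CPM in AM ZNF711 and 220, 336 and 237 CPM in AM TRAC (log2 −0.64, SE 0.13, edgeR adjusted p = 0.0139). The ZNF711 libraries were almost equal, all below the lowest control. TEK, the angiopoietin receptor, was at 21.3, 30 and 28.9 CPM against 44.8, 55.4 and 42.1 CPM (log2 −0.83, SE 0.16, adjusted p = 0.0103). TIE1 and ERG had −0.57 (SE 0.15, adjusted p = 0.0654) and −0.86 (SE 0.27, adjusted p = 0.162). The summed level of the list was 617 to 684 CPM against 747 to 1011 CPM, with no overlap.

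**Figure D2:**
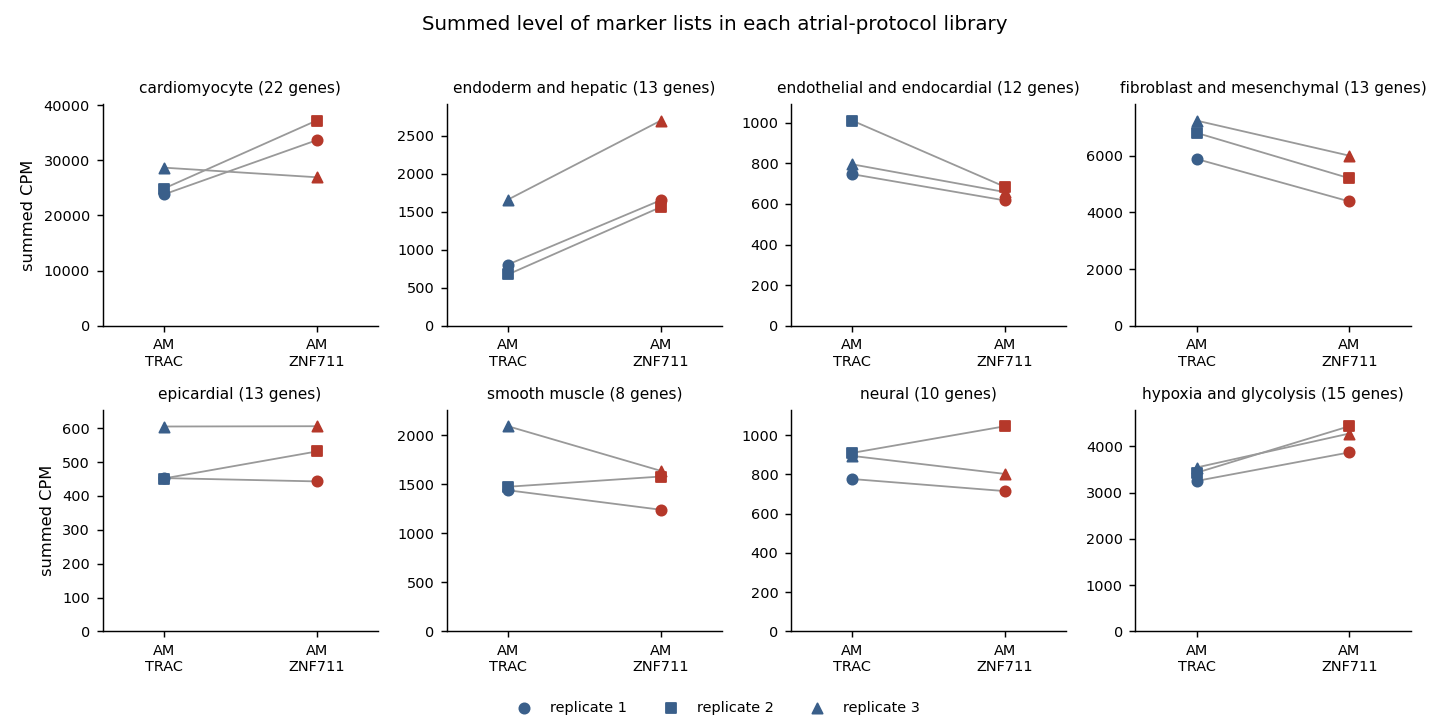
Summed CPM of 8 gene lists in each of the 6 atrial-protocol libraries, with AM TRAC on the left and AM ZNF711 on the right, and lines joining libraries of the same number (linear axes from 0). The endoderm and glycolysis sums are higher and the endothelial and fibroblast sums lower in AM ZNF711 in every pair, while the cardiomyocyte sum is higher in 2 of 3 pairs.

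Cardiomyocyte genes were mostly higher, with 1 call. Of 22 genes, 19 lay above 0, against 50.2% of all genes tested, with a median of 0.23. The call was NKX2-5, a core cardiac transcription factor, which rose, as did 0.237% of all genes tested. It was at 134, 176 and 146 CPM in AM ZNF711 and 89.1, 87.6 and 81.1 CPM in AM TRAC (log2 0.82, SE 0.18, edgeR adjusted p = 0.0496), close to the threshold and with no overlap. The cell line carries a reporter at NKX2-5 in both groups. The other 3 genes of lowest p were ATP2A2, the calcium pump of the sarcoplasmic reticulum (0.30, SE 0.10, adjusted p = 0.172), CSRP3, a Z-disc protein (0.72, SE 0.24, adjusted p = 0.18), and ACTC1, cardiac actin (0.54, SE 0.16, adjusted p = 0.189). The list summed to 33629, 37195 and 26923 CPM against 23798, 24856 and 28666 CPM, so that pair 3 went the other way.

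Of 12 atrial genes, KCNJ5 rose and 7 lay above 0 (median 0.11), against 0.237% and 50.2% of all genes tested. KCNJ5, a subunit of the acetylcholine-gated potassium channel of atrial and nodal cells, was at 26.2, 50.9 and 37.5 CPM against 18.1, 13.1 and 28.6 CPM (log2 1.0, SE 0.21, edgeR adjusted p = 0.0214). The groups overlapped, since control replicate 3 was above ZNF711 replicate 1. MYL7, the atrial myosin light chain, was at 834, 1147 and 1041 CPM against 449, 389 and 913 CPM and did not pass (0.92, SE 0.20, adjusted p = 0.0638). NPPA, atrial natriuretic peptide, was at 14.7, 21.5 and 13.8 CPM against 2.53, 2.97 and 10.9 CPM (1.94, SE 0.54, adjusted p = 0.156), and MYL4 had 0.47 (SE 0.12, adjusted p = 0.0931). None of 10 ventricular genes was called, and 7 lay above 0 (median 0.44). The 4 of lowest p were MYL3 (0.94, SE 0.28, adjusted p = 0.201), MYH7 (1.09, SE 0.38, adjusted p = 0.294), GJA1 (0.38, SE 0.16, adjusted p = 0.383) and HEY2 (0.69, SE 0.33, adjusted p = 0.458).

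Glycolysis and hypoxia genes rose or were higher without a call. All 14 tested lay above 0 (median 0.25), against 50.2% of all genes, and 2 rose, against 0.237%. At an unadjusted p under 0.05, 9 were higher and 0 lower, against 1822 of all 17724 in either direction. PFKP, a platelet-type phosphofructokinase, was at 294, 333 and 336 CPM in AM ZNF711 and 222, 211 and 248 CPM in AM TRAC (log2 0.51, SE 0.10, edgeR adjusted p = 0.0112). NDRG1, a gene induced by low oxygen, was at 134, 141 and 171 CPM against 102, 95.1 and 119 CPM (0.50, SE 0.11, adjusted p = 0.023). Neither gene's groups overlapped. SLC2A1, a glucose transporter, had 0.65 (SE 0.15, adjusted p = 0.0664) and BNIP3, a mitophagy receptor, had 0.39 (SE 0.12, adjusted p = 0.127). The list summed to 3869 to 4436 CPM against 3252 to 3543 CPM.

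**Figure D3:**
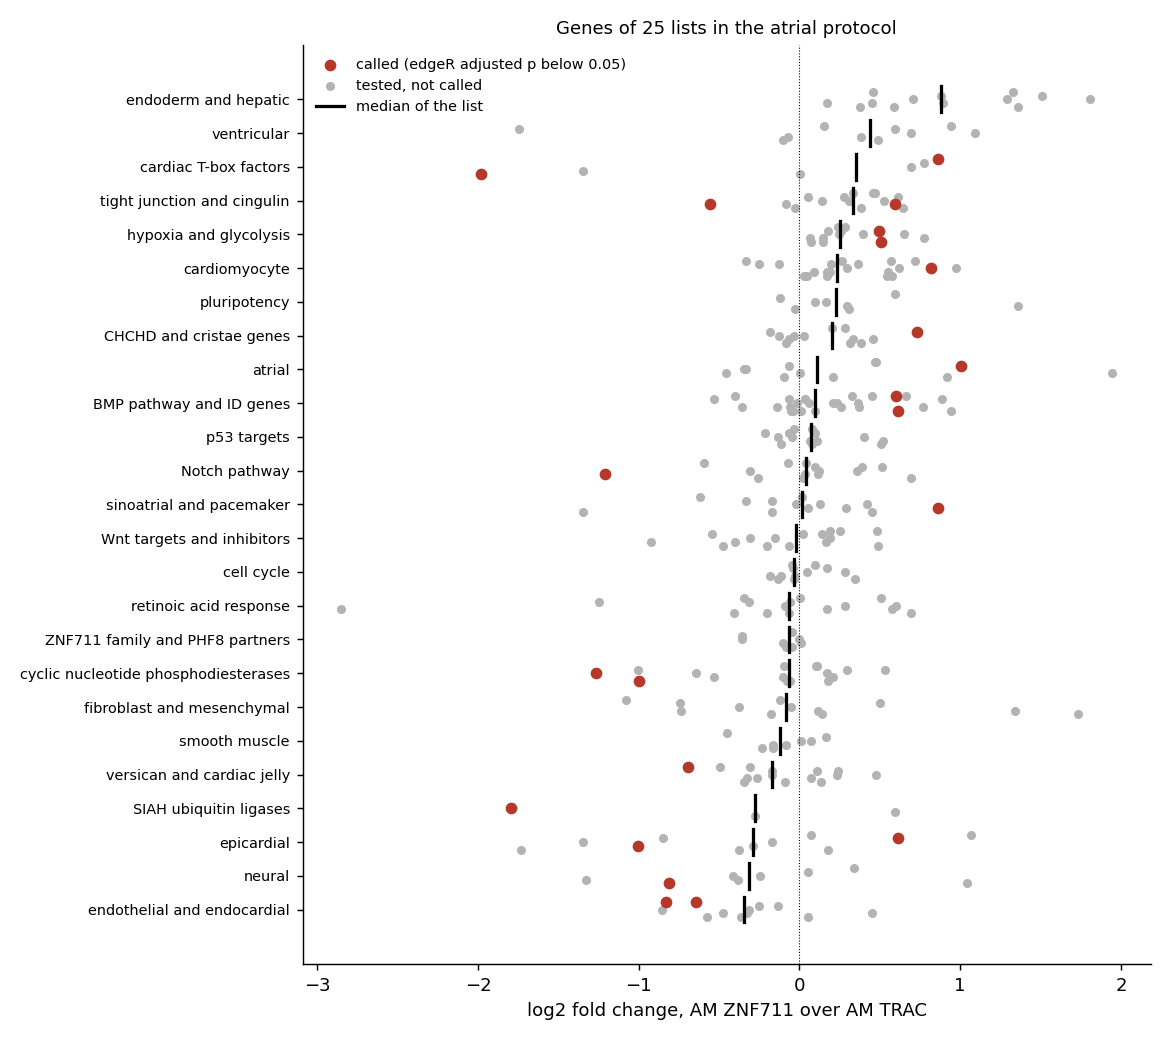
Log2 fold change, AM ZNF711 over AM TRAC, of every tested gene in 25 lists, ordered by the list median (black bar), with called genes in red. The endoderm list has the highest median (0.88) with no called gene, and the endothelial list the lowest (−0.35) with 2.

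Several lists held 1 or 2 called genes among members on both sides of 0, where 0.53% of all genes tested were called. In the epicardial list, KRT19, a keratin, rose (297, 338 and 394 CPM against 207, 176 and 304 CPM, log2 0.61, SE 0.14, edgeR adjusted p = 0.0421), and SEMA3D, a secreted semaphorin, fell (20.9, 35.2 and 27.8 CPM against 56.6, 74 and 40.6 CPM, log2 −1.01, SE 0.23, adjusted p = 0.0431). WT1, a defining epicardial factor, was at 0 to 1.01 CPM in AM ZNF711 and 0.181 to 2.55 CPM in AM TRAC. In the Notch list 10 of 15 genes lay above 0 with a median of 0.04, and 2 higher and 4 lower genes were at an unadjusted p under 0.05. HEYL, a transcriptional repressor induced by Notch, was the 1 call and fell (5.32, 12.9 and 8.85 CPM against 19.3, 26.8 and 15.3 CPM, log2 −1.21, SE 0.29, adjusted p = 0.0421). The ligand JAG1 had −0.31 (SE 0.09, adjusted p = 0.129), HEY1 had −0.59 (SE 0.21, adjusted p = 0.281) and the receptor NOTCH2 −0.26 (SE 0.09, adjusted p = 0.21). Among 8 neural genes tested DCX, a microtubule protein of migrating neurons, fell (39.9, 59.6 and 35.1 CPM against 66.5, 114 and 57.8 CPM, log2 −0.81, SE 0.17, adjusted p = 0.0139). SOX2, MAP2 and ELAVL4 of that list had 1.04 (SE 0.45, adjusted p = 0.388), −0.25 (SE 0.27, adjusted p = 0.841) and −1.33 (SE 0.82, adjusted p = 0.63).

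The other lists held no called gene. Retinoic acid response genes had a median of −0.06 over 16 genes, among them MEIS2 (−0.31, edgeR adjusted p = 0.23), STRA6 (−0.41, 0.286) and DHRS3 (0.51, 0.59). Smooth muscle genes had −0.12 over 8 genes, with MYH11 at −0.45 and SMTN at −0.23 (adjusted p 0.676 and 0.634). Cell cycle genes had −0.03 over 12, with CCNB1 at 0.28 and RRM2 at 0.34 (adjusted p 0.664 for each). Genes induced by p53, which responds to DNA breaks, had 0.07 over 14. CDKN1A, the p53-induced cell cycle inhibitor, was the nearest to a call (105, 149 and 148 CPM against 98.5, 96.6 and 105 CPM, 0.40, SE 0.10, adjusted p = 0.0577), and GDF15 had 0.51 (adjusted p = 0.185). Wnt targets and inhibitors had −0.02 over 16, with LEF1 at 0.49 and SFRP1 at −0.47 (adjusted p 0.121 and 0.308). Pluripotency genes had 0.23 over 8, with SALL4 at 0.31 (adjusted p = 0.317), and POU5F1 was at 0.547 to 2.81 CPM in the 6 libraries.

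By size of change, the 12 largest rises among called genes with 50 or more counts in all 3 ZNF711 libraries ranged from 0.85 to 1.38 on the log2 scale. The largest rise of any called gene, 1.70, was in a gene of fewer counts. MGAM, the intestinal maltase-glucoamylase, came first (22.1, 13.7 and 28.9 CPM against 7.59, 4.37 and 14.2 CPM, log2 1.38, SE 0.34, edgeR adjusted p = 0.0496). IHH, the hedgehog ligand of endoderm and cartilage, followed (24.5, 24.4 and 34.3 CPM against 12.7, 10.3 and 12.9 CPM, 1.19, SE 0.29, adjusted p = 0.04), and its groups did not overlap. STYXL2, a striated muscle protein of the phosphatase fold, had 1.17 and ACTN3, the alpha-actinin of fast muscle fibres, had 0.87. SEMA7A, a membrane-anchored semaphorin, had 1.05, ITGB6, the epithelial beta-6 integrin, had 0.97, and ANXA3, an annexin, had 0.90. MAPK4, an atypical MAP kinase, had 0.86, REEP6, a shaper of the endoplasmic reticulum, had 0.85, and the long noncoding gene ENSG00000254202 had 0.98. TBX3 and KCNJ5 completed the 12. The groups overlapped for MGAM, KCNJ5, ITGB6, ANXA3 and TBX3.

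Among genes that fell, the 12 of largest change and 50 or more counts in all 3 control libraries ranged from −1.79 to −1.0, and SIAH3 was the first of them. BAALC, a membrane-associated protein of neuroectoderm, was at 4.09, 6.64 and 6.51 CPM against 12.5, 23.9 and 14.2 CPM (log2 −1.53, SE 0.34, edgeR adjusted p = 0.0218). TENM1, a teneurin adhesion protein of the X chromosome, was at 12.1, 11.7 and 10.9 CPM against 40.3, 39 and 16 CPM (−1.38, SE 0.30, adjusted p = 0.0255), with control replicate 3 again the nearest. The liprin PPFIA2 had −1.16, the Rac exchange factor PREX2 −1.15, the noncoding LINC00342 −1.14, the fatty acid transporter SLC27A6 −1.07 and DACH2, a dachshund family corepressor, −1.0. PDE1B, HEYL, SEMA3D and PDE10A were the remaining ones. Only LINC00342 had overlapping groups. Larger fitted falls than that of SIAH3 were found in 5 called genes of fewer counts, WSCD2, HGF, LAMP5, TBX1 and SCARNA5, which were noticed after their values were seen. HGF, hepatocyte growth factor, was at 1.64, 5.84 and 2.34 CPM against 30, 47.1 and 5.65 CPM (−3.02, SE 0.53, adjusted p = 0.0139). WSCD2 had 1 count in each ZNF711 library against 26, 26 and 22, a ratio of scaled counts of 0.0516 with an exact 95% counting interval of 0.0104 to 0.157.

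**Figure D4:**
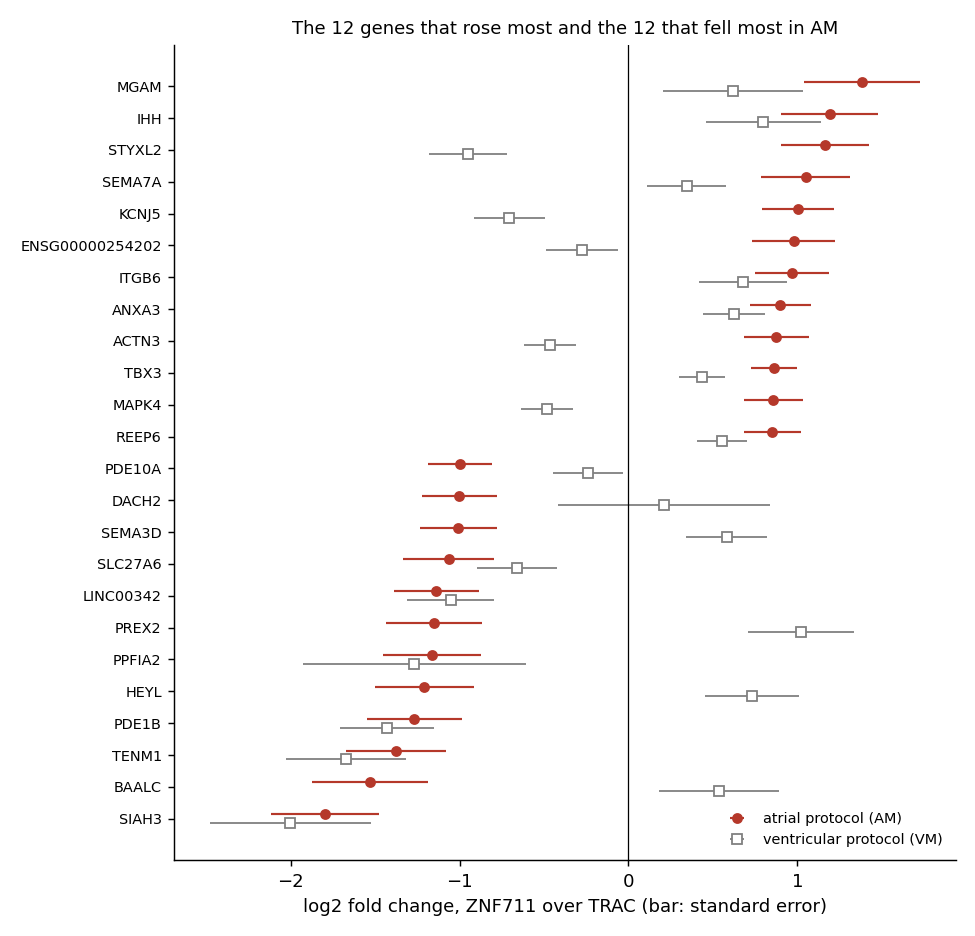
Log2 fold change of ZNF711 over TRAC with its standard error for 12 genes with the largest rises and 12 with the largest falls in the atrial protocol (red), beside the same genes in the ventricular protocol (open squares). The atrial values run from −1.79 to 1.38, and for 10 of the 24 genes the ventricular value lies on the other side of 0.

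The same targeting was compared between the protocols, which share no library. In VM, 1485 genes were called (8.38%), 846 higher (4.77%) and 639 lower (3.61%). The ZNF711 difference itself differed between AM and VM for 450 genes (2.54%), and for 32 of the 94 genes called in AM. Of the 42 genes that rose in AM, 28 lay above 0 in VM, 13 rose and 7 fell there. Of the 52 that fell in AM, 29 lay below 0 in VM, 15 fell and 7 rose there. The difference between protocols was called for 5 genes with a shared replicate block and for 1 with none. With 1 library left out it was called for 146 genes (VM ZNF711 replicate 2) to 1123 (VM ZNF711 replicate 3). Each of the other VM libraries and each AM library except AM ZNF711 replicate 3 also moved the count by over 1.5 times, to between 198 and 695.

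VCAN, CGNL1, SIAH3 and PDE1B fell in both protocols, with VM values of −0.60, −0.51, −2.0 and −1.43 and differences that did not pass the test (edgeR adjusted p 0.872, 0.934, 0.924 and 0.916). TBX3 rose in both, with 0.44 in VM (SE 0.14, adjusted p = 0.0381). ID2 had 0.31 in VM (SE 0.11, adjusted p = 0.0647) and PDE10A −0.24 (SE 0.21, adjusted p = 0.549). A difference between the protocols was not called for TBX3, ID2 or PDE10A (0.43, SE 0.19; 0.30, SE 0.15; −0.76, SE 0.28). Cardiomyocyte genes went apart: the list median was 0.23 in AM and −0.65 in VM, where 15 of 22 fell, and 13 of the 22 differed between the protocols. The list summed to 19898, 18907 and 14207 CPM in VM ZNF711 and 46616, 43960 and 18403 CPM in VM TRAC. It was lower in each pair, but control replicate 3 lay within the range of the VM ZNF711 libraries. NKX2-5 and KCNJ5 rose in AM and fell in VM (−0.65 and −0.70), and their differences passed the test (1.47, SE 0.25, adjusted p = 0.00428 and 1.71, SE 0.30, adjusted p = 0.000894). TEK, HEYL, SEMA3D and DCX fell in AM and lay above 0 in VM, with differences of −0.95 to −1.94. TBX1 fell in AM and rose in VM (1.13), a difference of −3.11 (SE 0.55, adjusted p = 0.000894). Endoderm genes were higher in both, with medians of 0.88 and 1.22, and for none of the 13 did the difference between protocols pass the test.

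Among genes with 50 or more counts in every library of some group compared, the 3 largest differences between protocols in each direction were in genes called in VM and not in AM. Some genes of fewer counts differed by more, among them HGF (−7.09, SE 1.15, edgeR adjusted p = 0.00262), which was called in AM. OSR1, a mesoderm transcription factor, was at 23.3, 25.8 and 21.3 CPM in AM ZNF711 and 29.1, 24.2 and 20.2 CPM in AM TRAC, and its log2 fold change was −0.06 in AM and −2.65 in VM. NMNAT3, a mitochondrial NAD enzyme, had 0.22 and −2.16. ADGRG2, an adhesion receptor, was at 37, 19.5 and 35.4 CPM against 11.4, 7.65 and 18.9 CPM in AM without a call (1.32, SE 0.32, edgeR adjusted p = 0.0825), and had −1.11 in VM. SCUBE1, a secreted protein, had −1.36 and 2.83, and the BMP antagonist CHRDL1 had −0.36 and 3.34. SOX10, a neural crest factor, had 0, 5 and 1 counts in AM ZNF711 and was at 14.4 to 32.2 CPM in VM ZNF711.

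Against the other targeted atrial cells, AM ZNF711 differed from the mean of AM LHX2 and AM ZNF503 for 1049 genes (5.92%). Of these 65.2% were higher in AM ZNF711, and 39.2% when libraries were scaled to their size alone, which moved the median of all genes to −0.06. The count was 53 without AM ZNF711 replicate 2, 520 without AM LHX2 replicate 2 and 521 without AM ZNF503 replicate 1. With a shared replicate block 336 genes were called, and with none 0 (1594 at an unadjusted p under 0.05, lowest edgeR adjusted p 0.129). This comparison shares the AM ZNF711 libraries with the main one, so the values stand side by side only. TBX3 had 0.80 (SE 0.12, edgeR adjusted p = 8.5e-05), ID2 0.30 (SE 0.09, adjusted p = 0.0491), VCAN −0.53 (SE 0.10, adjusted p = 0.00156) and PDE10A −0.93 (SE 0.17, adjusted p = 0.000703). TBX3 was at 41.1 to 83.7 CPM in AM LHX2 and 32.2 to 64.4 CPM in AM ZNF503, and VCAN was at 2301 to 4119 and 2487 to 3885 CPM. ID2 was at 99.2 to 153 CPM in AM LHX2, which overlapped AM ZNF711 (124 to 149 CPM). In AM ZNF503 it was at 81.5 to 121 CPM, below every AM ZNF711 library. Among genes with 50 or more counts in every library of some group compared, the largest rises were in MT-RNR2 and MT-RNR1, the mitochondrial ribosomal RNAs (4.09 and 3.95). The labels name both polyA RNA and a ribosomal depletion kit, and how much ribosomal RNA a library keeps depends on that step, so whether these values differ through the cells or the library preparation cannot be told apart. MT-RNR2 was at 31.8 to 45.3 CPM in AM LHX2, 388 to 874 CPM in AM ZNF503, 1092 to 3548 CPM in AM ZNF711 and 1340 to 2107 CPM in AM TRAC. RBP4, a retinol carrier made by hepatic endoderm, was higher (2.39, SE 0.57, adjusted p = 0.031). It was at 17.6, 14.1 and 69.2 CPM in AM ZNF711, 1.03 to 18.8 CPM in AM LHX2 and 0.915 to 19.9 CPM in AM ZNF503. Replicate 3 was the highest in each group, so the groups overlapped. RBP4 was called in 3 of the 9 fits with 1 library left out. IFI44L, an interferon-induced gene, and PKD1L2, a polycystin relative annotated as a polymorphic pseudogene, were lower (−1.72 and −1.60).

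Gene length moved with the result. The genes that fell had a median genomic span of 124.9 kb, against 28.5 kb for all tested genes with a length and 28.4 kb for the genes that rose. Their median exon length was 7.96 kb against 4.58 kb and 4.84 kb. Over 5 equal bins of the tested genes by span, the median log2 fold change went from 0.04 in the shortest to −0.04 in the longest, and the longest bin held 32 genes that fell and 7 that rose, against 1 and 8 in the shortest. In pairs 2 and 3 the median was also lower in the longest bin than in the shortest, and in pair 1 it was not, with −0.01 in the shortest and 0.02 in the longest. With a correction for span 88 genes were called, 82 of them among the 94, and with one for exon length 76, of which 72. The balance of directions moved with these corrections, from 42 higher and 52 lower to 46 and 42 with span and to 41 and 35 with exon length. Of the named and list genes followed one by one, 110 kept their sign and call status with the span correction and 4 lost a call. With the exon length correction these were 109 and 5. Whether length is a cause of the change in any single gene was not tested.

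**Figure D5:**
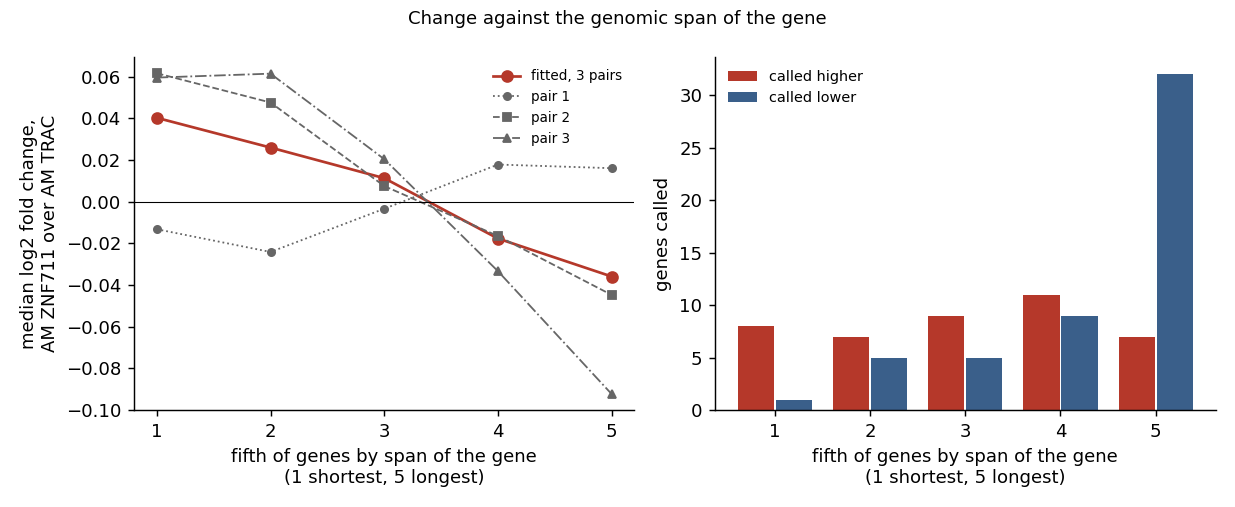
Left, median log2 fold change (AM ZNF711 over AM TRAC) in 5 equal bins of the tested genes by genomic span, fitted over the 3 pairs (red) and for each pair (grey). Right, the number of genes called higher and lower in each bin, with 32 lower and 7 higher in the longest.

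Positional overlap limits some genes. Of the 94 called genes, 39 share exon positions with another annotated gene and 31 with a gene on the opposite strand, among them CGNL1, TENM1 with STAG2, PDE1B with PPP1R1A, CLDN6 with TNFRSF12A and TBX1 with GNB1L.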

How the data were processed

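The deposited table holds read counts per gene for 24 libraries, made by the authors with STAR on GRCh38, per the submitters' processing notes. Versions, the counting program, its strand setting and the annotation were not given in the sources used here, and the labels name both polyA RNA and a ribosomal depletion kit. Gene positions are from GENCODE 29. From the counts, edgeR 4.0.16 (R 4.3.3) was run with TMM scaling, filterByExpr, robust quasi-likelihood fits and Benjamini-Hochberg adjusted p below 0.05. All 24 libraries entered 1 fit with a mean for each group and a replicate block within each condition, which left 12 residual degrees of freedom. Same-numbered libraries were taken as pairs by the rule that set the comparison. The block was chosen with earlier results of these data known. Deviations of same-numbered libraries from group means correlated at 0.43, 0.20 and 0.28 over 11428 genes (different numbers −0.29 to 0.09). Deviations within a group cancel out, so the values for different numbers are partly fixed. The members and lists were chosen with earlier results of these data known, so no list supports another result. Besides TBX3, ID2, VCAN, PDE10A and ZNF711, the genes named were the 12 that rose and 12 that fell most among called genes with 50 counts in each library of the higher group and 1 sign in all pairs, the 3 largest called changes each way in the AM against VM and other-target comparisons with 50 counts in every library of some group compared, and in each list the called genes or up to 4 of lowest p. Any further gene was picked with its values in view. Alternatives were the scaling, filter, block, libraries in the fit, DESeq2 1.42.0, each library left out and, chosen after seeing the data, each pair left out and length corrections. The procedure was tested on simulated data. Some genes that the naming rule chose are not reported here.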

Additional observations from a re-analysis of the deposited data

Results flagged for a closer look

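Among the genes named, 34 responded differently to ZNF711 targeting in the 2 protocols, by the edgeR test of the difference itself (adjusted p 0.000655 to 0.0445). Over all genes tested, 450 of 17724 (2.54%) passed that test. For 33 of the 34 the value lay on opposite sides of 0 in AM and VM, the exception being OSR1, and 16 were called in AM. All 34 were kept for passing this test and some were named for the size of the difference. Opposite signs therefore follow in part from the choice. For some genes 1 of the 2 values was also smaller than its SE, such as CHRDL1 and NMNAT3 in AM (−0.36, SE 0.39 and 0.22, SE 0.32). Opposite signs are thus not a change in both protocols for each gene. The values are the AM log2 fold change minus that in VM, and 19 were above 0.

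Of the 22 cardiomyocyte genes, 13 differed between the protocols, and the named ones had 1.47 for NKX2-5, 1.2 for ACTC1 and 0.55 for ATP2A2. Atrial, ventricular and T-box genes had 1.71 for KCNJ5, 1.39 for MYL7, 1.13 for MYL4, 1.70 for MYL3, 1.69 for TBX20 and −3.11 for TBX1. In the Notch list 3 of 15 genes differed, in both directions, with 1.47 for HEY2, −0.61 for JAG1 and −1.94 for HEYL. In the fibroblast, versican and endothelial lists 1 gene each differed, with −1.52 for COL1A2, −0.57 for FN1 and −0.95 for TEK.

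The other differences above 0 were 2.59 for OSR1, 2.44 for ADGRG2, 2.38 for NMNAT3, 2.12 for STYXL2, 1.34 for ACTN3, 1.34 for MAPK4, 1.25 for ENSG00000254202, 0.85 for CHCHD10, 0.75 for PFKP and 0.74 for LEF1. The others below 0 were −7.09 for HGF (AM −3.02 and VM 4.07), −4.19 for SCUBE1, −3.70 for CHRDL1, −3.68 for SOX10, −2.17 for PREX2, −2.06 for BAALC, −2.06 for MAP2, −1.59 for SEMA3D and −1.11 for DCX.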

How the results depend on the processing

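The number of genes called between AM ZNF711 and AM TRAC (94) was 76 to 100 under other scalings, a filter at 1 CPM and both length corrections. It was 289 with no filter, 464 with only the groups compared in the fit, 279 with only the AM libraries and 194 with DESeq2. With 1 shared replicate block it was 7, and with no replicate block 0. The difference between protocols (450) was called for 5 genes with the shared replicate block, 1 with none and 209 with only the groups compared. The comparison with AM LHX2 and AM ZNF503 (1049) gave 336 with the shared replicate block and 0 with none. With 1 library or 1 pair left out these counts ranged from 0 to 307, from 146 to 1123 and from 53 to 1117. The cause of these shifts was not tested. All 94 genes kept their sign in every AM alternative. Among genes with no call, signs were followed only for named genes and those of lowest p in each list. Of those, 3 turned sign with libraries left out, PHF2, MCM2 and TDGF1. PHF2 (−0.05) was 0.0315 and 0.0116 without AM ZNF711 replicates 1 and 2, 0.0203 without AM TRAC replicate 1 and 0.0615 and 0.0258 without pairs 1 and 2, in a range of −0.229 to 0.0615. MCM2 was 0.0058 without AM ZNF711 replicate 2 and 0.00655 without pair 2 (range −0.295 to 0.00655), and TDGF1 was −0.156 without pair 1 (range −0.156 to 3.01). Depth limits genes of few counts, since 3 counts equal 0.604 to 0.781 CPM in AM ZNF711.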
